A study of Mus musculus with 6 samples.

Results

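Pck1 and 8 further genes that make and esterify glycerol 3-phosphate (Pck2, Gpd1, Aqp7, Gpam, Agpat2, Lpin1, Dgat1 and Dgat2) were followed in lung RNA of mice with and without Zpbp2. They were picked by gene symbol, 9 of 41388 genes in the count table, and all 9 passed the filter on low counts. The choice was made with KO and WT levels of these libraries already known: Pck1 was among the genes with the lowest KO level relative to WT, and Pck1 and Dgat2 are on the study's own list of differing genes. The difference between genotypes in these 9 genes is therefore given as a description. Counts of how many of them passed the all-gene threshold belong to that description and support nothing here.

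The libraries were made from whole lung of adult mice, 3 per genotype, collected at ZT7, that is 7 h after lights on, in a light/dark cycle. WT mice were C57BL/6J. KO mice carried a germline deletion of the first exons of Zpbp2, present in all cells and not only in lung, and were labelled C57BL/6J as well. Both genotypes were born in 1 colony, no treatment was given, and no age beyond adult is stated. Y-linked Ddx3y was at 55.6 to 79.9 CPM (counts as a share of the scaled library in parts per 1e6) in all 6 libraries.

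Total counts ranged from 59134950 to 71354388 per library. Zpbp2 had 20, 15 and 7 counts in WT1 to WT3 and 1, 0 and 0 in KO1 to KO3. The 6 lung markers, the surfactant protein gene Sftpc among them, were at 1 CPM or more in every library. KO2 and KO3 differed from each other by little more than counting noise (variance 1.71 to 1.94 times that of counting for genes with 20 to 20000 counts, and 3.33 times above), so they were counted as 1 sample and n is 3 for WT and 2 for KO. WT3 and KO1 stood apart from the other libraries on the first principal component (66.9% of the variance) and in summed squamous epithelium genes, at 4646 and 8913 CPM against 5.53 to 10.7 CPM elsewhere. The differences of the 9 genes, of Pck1 relative to adipocyte markers and of the named pathway genes are accordingly also given with both of these libraries left out, as ratios of means. P-values measure the spread between these few samples only.

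Triglyceride is built on glycerol 3-phosphate. Fat cells form it from glucose, or from lactate and amino acids by glyceroneogenesis, in which phosphoenolpyruvate carboxykinase (encoded by Pck1 in the cytosol and Pck2 in mitochondria) turns oxaloacetate into phosphoenolpyruvate and glycerol 3-phosphate dehydrogenase (Gpd1) later reduces dihydroxyacetone phosphate. Glycerol 3-phosphate acyltransferase (Gpam), lysophosphatidate acyltransferase (Agpat2), the phosphatidate phosphatase lipin (Lpin1) and the diacylglycerol acyltransferases (Dgat1, Dgat2) then add the fatty acids, while Aqp7 is the channel through which glycerol leaves the adipocyte. In the lung the same acylation steps also serve phospholipid synthesis, in alveolar type 2 cells for surfactant.

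Promoter windows are shown for Pck1, Aqp7 and Lpin1, chosen after their levels were seen, and for Pck2, the mitochondrial counterpart of Pck1, since Pck1 transcription is known to respond to cAMP and nuclear receptors. Each window holds the 250 bases before the RefSeq start (GRCm38.p6), read 5′ to 3′ on the gene's strand, and capitals mark matches on either strand to TGACG (the core of a cAMP response element), AGGTCA (a nuclear receptor half-site), CACGTG (an E-box), TATAAA or TATTTAA. The windows lie at chr2:173152823-173153072 (plus strand) for Pck1, chr4:41048137-41048386 (minus strand) for the first of the listed starts of Aqp7, chr12:16610967-16611216 (minus strand) for Lpin1 and chr14:55540016-55540265 (plus strand) for Pck2.
Pck1: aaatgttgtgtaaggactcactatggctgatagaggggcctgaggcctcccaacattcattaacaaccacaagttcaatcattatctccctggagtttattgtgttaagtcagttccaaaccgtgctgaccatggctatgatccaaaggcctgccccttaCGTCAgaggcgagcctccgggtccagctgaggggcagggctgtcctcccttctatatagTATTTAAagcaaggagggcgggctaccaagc
Aqp7: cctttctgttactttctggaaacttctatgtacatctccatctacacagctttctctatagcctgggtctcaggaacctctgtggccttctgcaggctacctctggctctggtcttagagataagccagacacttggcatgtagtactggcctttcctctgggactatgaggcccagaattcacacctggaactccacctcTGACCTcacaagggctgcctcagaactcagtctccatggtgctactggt
Lpin1: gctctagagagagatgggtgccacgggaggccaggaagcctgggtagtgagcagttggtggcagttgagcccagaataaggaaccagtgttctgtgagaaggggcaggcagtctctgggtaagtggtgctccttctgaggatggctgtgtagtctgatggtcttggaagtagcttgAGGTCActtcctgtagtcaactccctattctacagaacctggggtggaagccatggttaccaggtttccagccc
Pck2: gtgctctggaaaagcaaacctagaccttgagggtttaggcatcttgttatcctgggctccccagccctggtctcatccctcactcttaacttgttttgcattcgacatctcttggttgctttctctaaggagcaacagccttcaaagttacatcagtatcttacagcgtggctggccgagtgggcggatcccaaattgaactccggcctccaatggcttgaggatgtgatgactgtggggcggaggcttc

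The Pck1 window held TGACG, printed as its reverse complement, 90 bases before the start, and TATTTAA 31 bases before it. TATTTAA was added to the search after the sequence had been seen. The Aqp7 and Lpin1 windows each held AGGTCA, 49 and 74 bases before the start. The window at the other listed start of Aqp7, which overlaps the one shown, held AGGTCA 223 and 101 bases before that start. Pck2 and Agpat2 held no match to the 5 motifs. Of the windows of Gpam, the one at its upstream start held none and the one at its downstream start held TGACG at 2 places and AGGTCA at 1. Among all 32851 RefSeq windows of the same length, 17.8% held TGACG, 14.0% AGGTCA, 6.02% CACGTG, 12.4% TATAAA and 4.18% TATTTAA. These matches describe letters only, and 6 of the 9 genes had a window. Gpd1, Dgat1 and Dgat2 had no entry.

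Pck1 (ENSMUSG00000027513, chr2:173153048-173159273, plus strand, GRCm38) had the lowest KO level relative to WT of the 9 genes. It was at 112, 122 and 85.3 CPM in WT1 to WT3 and at 4.78, 9.70 and 9.53 CPM in KO1 to KO3. The counts behind these levels were 5115 to 8627 in WT and 301 to 603 in KO. Every KO library lay far below every WT library, and KO1 was lowest. The mean was 107 ± 19.1 CPM in WT (SD, n = 3) and 7.20 ± 3.42 CPM in KO (SD, n = 2), a 14.8-fold difference that left 6.75% of the WT level. The edgeR log2 fold change, KO over WT, was -3.87 (SE 0.39) and stayed between -4.02 and -3.47 under 16 other ways of processing. With WT3 and KO1 left out the log2 ratio of the means was -3.61, and between WT3 and KO1 alone it was -4.16.

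Pck2 (ENSMUSG00000040618, chr14:55540266-55551242, plus strand), the mitochondrial enzyme, differed little. It was at 44.2, 40.1 and 44.8 CPM in WT and at 49.6, 51.9 and 53.5 CPM in KO, with a log2 fold change of 0.25 (SE 0.07). It was the 1 gene of the 9 whose KO libraries all exceeded its WT libraries, by a narrow margin. Per kilobase of coding transcript, Pck1 was at 4.42, 5.30 and 3.31 times the level of Pck2 in WT and at 0.168, 0.325 and 0.309 times in KO. The cytosolic form was thus the more abundant in all 3 WT libraries and the less abundant in all 3 KO libraries.

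**Figure D1:**
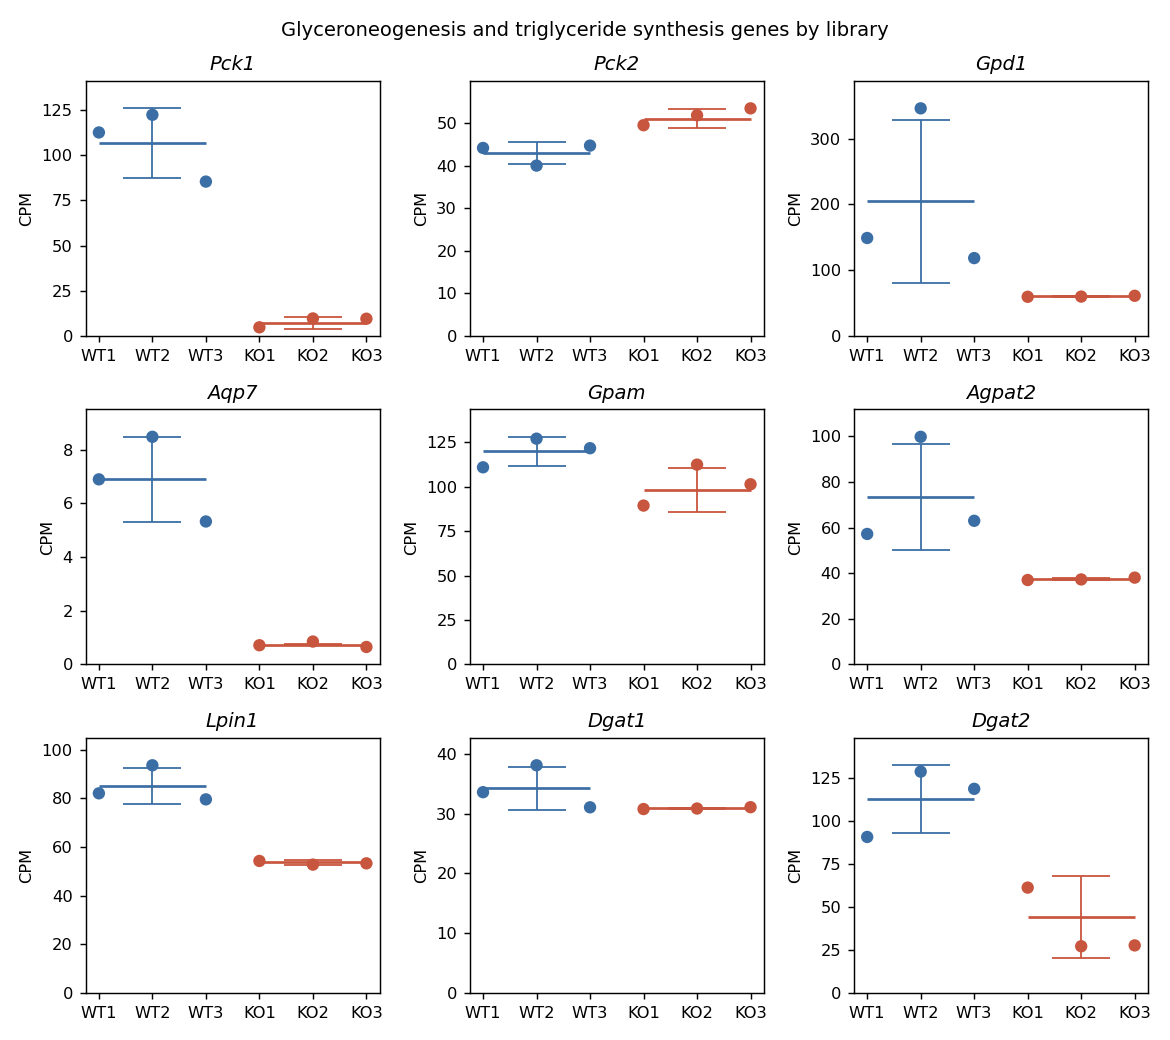
Level of each gene in CPM (linear axis from 0) in the 3 WT (blue) and 3 KO (red) libraries. Points are libraries, horizontal lines the group mean and bars 1 SD, with KO2 and KO3 averaged into 1 sample (n = 3 and 2); Pck1 and Aqp7 nearly reach the axis in KO, Gpam and Dgat1 overlap between genotypes, and Pck2 is the one gene higher in KO.

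Among the genes that supply or release the glycerol backbone, Gpd1 and Aqp7 were both lower in KO, with different spreads. Gpd1 (ENSMUSG00000023019, chr15:99717515-99725005, plus strand) was at 149, 346 and 118 CPM in WT and at 59.6, 59.9 and 61.1 CPM in KO. WT2 was far above the other WT libraries, whereas the KO libraries were nearly equal. The log2 fold change was -1.76 (SE 0.51), and -1.15 without WT2. It was -2.03 without WT3 and KO1. An antisense gene, Gm16537, covers 13.0% of the exonic length of Gpd1. The sources do not say whether counting used the strand, so the effect of this overlap on the Gpd1 counts is not known.

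Aqp7 (ENSMUSG00000028427, chr4:41033074-41048139, minus strand), the adipocyte glycerol channel, was at 6.89, 8.47 and 5.32 CPM in WT and at 0.715, 0.852 and 0.650 CPM in KO. These are 319 to 598 counts in WT and 38 to 53 in KO. Aqp7 was the least abundant of the 9 genes in both genotypes, and its KO libraries lay close together, 9.40-fold below the WT mean. Its log2 fold change was -3.22 (SE 0.26), within -3.38 to -3.05 under the 16 alternatives and -3.35 without WT3 and KO1.

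The acylation steps differed less than Pck1 and Aqp7, and more for some enzymes than for others. Gpam (ENSMUSG00000024978, chr19:55067268-55127238, minus strand), which adds the first acyl chain, was at 111, 127 and 122 CPM in WT and 89.4, 112 and 101 CPM in KO. The genotypes overlapped, with a log2 fold change of -0.28 (SE 0.11). Agpat2 (ENSMUSG00000026922, chr2:26593057-26604417, minus strand), which adds the next, was at 57.2, 99.8 and 63.0 CPM in WT and 37.0, 37.3 and 38.1 CPM in KO. All KO libraries were below all WT libraries, WT2 was again highest, and the log2 fold change was -0.97 (SE 0.26), or -0.68 without WT2. Agpat2 shares 64 bases of exon (3.0% of its exonic length) with Egfl7 on the other strand.

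Lpin1 (ENSMUSG00000020593, chr12:16535669-16610966, minus strand), the phosphatidate phosphatase that is also a transcriptional coactivator, was at 82.0, 93.5 and 79.5 CPM in WT and 54.2, 52.7 and 53.2 CPM in KO. The difference was modest but the libraries of each genotype lay close together, with means of 85.0 ± 7.47 CPM (SD, n = 3) and 53.6 ± 0.878 CPM (SD, n = 2). The log2 fold change was -0.66 (SE 0.08), and its range over the alternatives was -0.72 to -0.50.

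The diacylglycerol acyltransferases, which complete the triglyceride and are unrelated in sequence, parted from each other. Dgat1 (ENSMUSG00000022555, chr15:76502015-76511953, minus strand) was at 33.6, 38.1 and 31.0 CPM in WT and at 30.8, 30.8 and 31.1 CPM in KO, so that WT3 and KO3 met and the log2 fold change was -0.14 (SE 0.10). Dgat2 (ENSMUSG00000030747, chr7:99153658-99182719, minus strand), the form linked to newly made fatty acids, was at 90.8, 129 and 119 CPM in WT and 61.3, 27.2 and 27.7 CPM in KO. Every KO library was below every WT library, but KO1 held more than the other KO libraries, the reverse of Pck1. The log2 fold change of Dgat2 was -1.35 (SE 0.37) and reached -2.04 without KO1. With a term for squamous epithelium genes it was -1.55 and Dgat2 passed the all-gene threshold, as a description. Per kilobase, Dgat2 was at 2.26, 2.82 and 3.20 times Dgat1 in WT and at 1.66, 0.735 and 0.744 times Dgat1 in KO.

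With WT3 and KO1 left out, the log2 ratio of the means was 0.32 for Pck2, -0.15 for Gpam, -1.06 for Agpat2, -0.73 for Lpin1, -0.21 for Dgat1 and -2.0 for Dgat2. All 9 directions were as with all libraries. Within WT3 and KO1 the largest departures were in Dgat2 (-0.95) and Gpd1 (-0.99), about 1 log2 unit short of the other libraries.

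Ordered by level per kilobase of coding transcript, WT lung held Gpd1 (mean 71.5 CPM per kb), Dgat2 (49.9), Agpat2 (49.3) and Pck1 (40.1) at the top, and neighbours among these overlapped between libraries. Gpam (18.9) and Dgat1 (18.1) followed and overlapped with each other. Lpin1 (13.7), Pck2 (9.30) and Aqp7 (2.69) came last, each separate from its neighbours. In KO the order was Agpat2 (25.1 CPM per kb), Gpd1 (21.0), Dgat2 (19.6), Dgat1 (16.3), Gpam (15.5), Pck2 (11.1), Lpin1 (8.65), Pck1 (2.71) and Aqp7 (0.286). From Gpd1 to Gpam the KO neighbours overlapped, and all others were separate. Pck1 thus moved from the leading group in WT to the place next to last in KO.

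Of the 9 genes, 3 (Pck1, Aqp7 and Lpin1) passed an adjusted p of 0.05 in edgeR's quasi-likelihood test over all genes, all with lower levels in KO. Over all 18660 genes tested 2.28% passed, and 0.906% passed with a lower level in KO. The genes were chosen on this contrast, so nothing is read from that comparison. In 6 genes every KO library lay below every WT library, against 20.9% of all genes tested, and in 1 gene (Pck2) every KO library lay above, against 20.0%. The median log2 fold change was -0.97 over the 9 genes and 0.02 over all tested genes. With the 6 libraries kept separate, 7 of the 9 passed (Pck2, Gpd1, Agpat2 and Dgat2 in addition), where 18.9% of all genes did. None of the 9 passed when WT1, WT2, WT3 or KO1 was left out, but of all genes tested 0 passed without WT1, WT2 or WT3 (edgeR, 3346 to 4193 at an unadjusted p of 0.05) and 17 of 19260 without KO1.

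Markers of adipocytes were lower in the same libraries. Summed over 21 adipocyte markers, none of them among the 9 genes, the level was 1663 to 2335 CPM in WT and 574 to 648 CPM in KO. In 20 of the 21 every KO library was below every WT library, where 20.9% of all genes tested were, and 7 passed the test, all lower in KO (0.906% of all genes), with a median log2 fold change of -1.84 beside 0.02 over all genes. In DESeq2 19 passed (3919 of 18660 genes did) and in the exact test 17 (209 genes did). The study picked 13 of these 21 from the same libraries, so the list is not independent evidence of its direction. In all 6 libraries 19 of the 21 were at 1 CPM or more, and Cidec is also listed for alveolar macrophages. Adipoq, the fat cell hormone adiponectin, was at 73.7, 98.6 and 69.4 CPM in WT and 6.28, 17.8 and 21.7 CPM in KO. Plin1, the coat protein of the adipocyte lipid droplet, was at 54.5, 80.3 and 50.1 CPM in WT and 3.73, 10.1 and 8.39 CPM in KO. As for Pck1, KO1 was lowest for both. In bulk lung, fewer fat cells and less RNA of these genes per fat cell cannot be told apart.

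By the way it was chosen Pck1 stood at the low end. The log2 fold changes of the 21 markers, all above that of Pck1, ran from -3.39 for the hormone Lep to -0.22 for the amino acid transporter Slc7a10, and 2 of them were below that of Aqp7. As a share of the summed adipocyte markers, Pck1 was at 6.70%, 5.24% and 5.13% in WT and at 0.833%, 1.52% and 1.47% in KO. On the log2 scale this is a difference of -2.34 (pooled SD 0.39), and -1.92 without KO1. The sum holds genes such as Slc7a10 that stayed near their WT level. Against Plin1 alone the difference was -0.60, with ratios of 2.06, 1.52 and 1.70 in WT and 1.28, 0.956 and 1.14 in KO. Against Adipoq alone it was -1.12, with ratios of 1.53, 1.24 and 1.23 in WT and 0.762, 0.545 and 0.440 in KO. Both of these single markers were chosen as denominators after the data were seen. The ratio to Lep was 9.18, 5.39 and 5.53 in WT and 5.38, 4.90 and 3.69 in KO, so that WT2 and KO1 nearly met. With WT3 and KO1 left out, the log2 difference was -2.0 against the sum, -0.78 against Plin1, -1.49 against Adipoq and -0.76 against Lep. Since Pck1 was chosen for its low KO level, these values describe its place beside the markers and nothing is read from their direction.

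**Figure D2:**
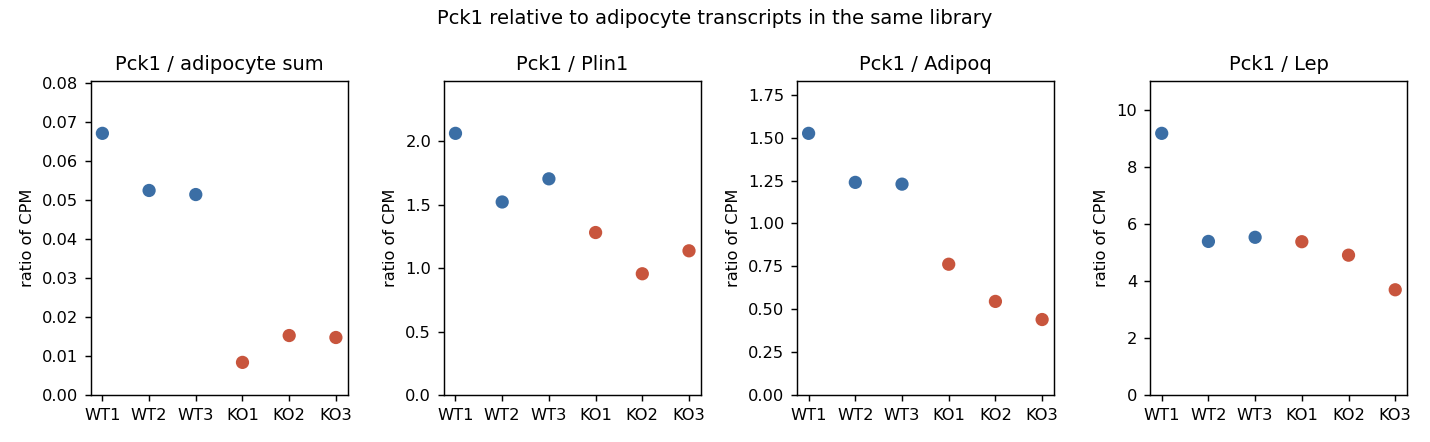
Ratio of Pck1 CPM to the summed CPM of 21 adipocyte markers and to Plin1, Adipoq and Lep in each WT (blue) and KO (red) library, on linear axes from 0. KO libraries lie below WT libraries in every panel, with a wide gap for the sum and a very small one for Lep.

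The other genes kept different shares of the adipocyte sum. Gpd1 was at 8.88%, 14.8% and 7.12% in WT and 10.4%, 9.40% and 9.43% in KO, so that its genotypes overlapped on this scale. Dgat2 was at 5.41%, 5.52% and 7.15% in WT and 10.7%, 4.26% and 4.27% in KO, also overlapping over all libraries, with KO1 highest. Aqp7 was at 0.410%, 0.363% and 0.320% in WT and 0.125%, 0.134% and 0.100% in KO and remained lower. Pck2, Gpam, Agpat2, Lpin1 and Dgat1 had larger shares in every KO library than in every WT library. The sum was itself lower in KO, so a gene that fell less than the sum has a larger share. In CPM, Agpat2 and Lpin1 were at 50.9% and 63.0% of their WT level in KO.

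**Figure D3:**
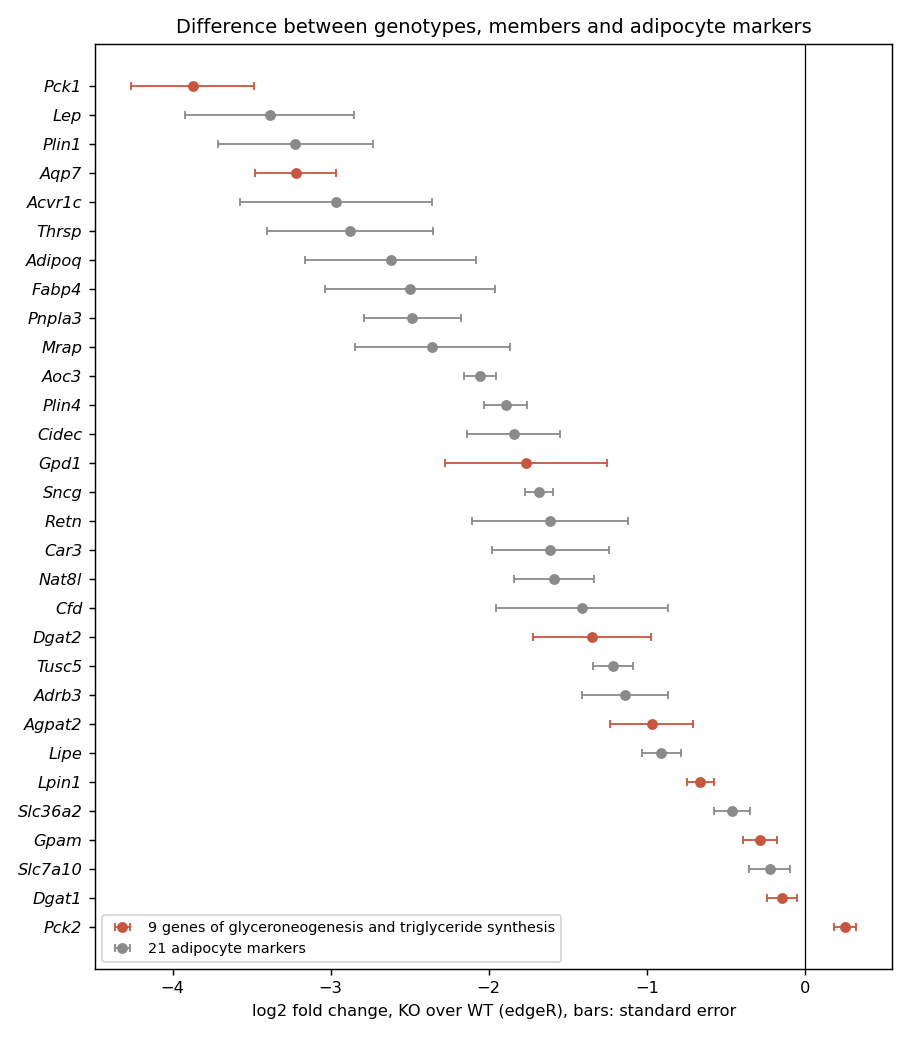
Log2 fold change, KO over WT, with its standard error (edgeR) for the 9 genes (red) and 21 adipocyte markers (grey), ordered by value. Pck1 is at the low end at -3.87, Aqp7 lies next to Plin1, Gpd1 and Dgat2 lie within the markers, and Gpam, Dgat1 and Pck2 lie near 0.

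Brown fat markers varied among the WT libraries. Ucp1, which uncouples respiration in brown adipocytes, was at 49.7, 131 and 6.27 CPM in WT and at 0.0953 to 0.137 CPM in KO. The same order in WT (WT2, then WT1, then WT3) was seen for Gpd1, Pck1, Aqp7, Lpin1 and Dgat1, and for Adipoq and Plin1. The sum of 9 brown adipocyte markers was 118 to 312 CPM in WT and 74.2 to 82.6 CPM in KO. Prdm16, with a log2 fold change of -0.06, made up 37.7, 52.7 and 49.4 CPM of the sum in KO1 to KO3. In every KO library 6 of the 9 were lower than in every WT library (20.9% of all genes tested were). Of the 9 markers 0 passed the edgeR test and 6 had an unadjusted p of at most 0.05 (27.3% of all genes did). In DESeq2 6 passed, where 3919 of 18660 genes did. Relative to the sum of the 9 the log2 difference of Pck1 was -2.65. The log2 fold changes of Ucp1 (-9.15) and Otop1 (-5.92) were below that of Pck1 (-3.87), and those of the other brown adipocyte markers were above it. The value thus depends on which markers the sum holds, and nothing is read from its direction.

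Liver, kidney cortex and small intestine are also known for Pck1, and their markers were measured in the same libraries. Summed hepatocyte markers (9 genes) were at 48.1 to 70.3 CPM in WT and at 18.6, 88.1 and 85.6 CPM in KO. Of these 9, 6 were higher in every KO than in every WT library (20.0% of all genes were) and 0 passed the edgeR test. At an unadjusted p of 0.05, 5 passed (27.3% of all genes did), and in DESeq2 5 passed (3919 of 18660 genes did). Cyp2e1 alone was at 45.7 to 67.9 CPM in WT and at 12.9, 45.1 and 43.0 CPM in KO. The other 8, albumin (Alb) among them, summed to 2.35 to 2.42 CPM in WT, 5.74 CPM in KO1 and 43.0 and 42.6 CPM in KO2 and KO3. Kidney proximal tubule markers (7 genes) summed to 3.35 to 4.64 CPM in WT and 3.99 to 5.45 CPM in KO, and the defining Kap and Slc22a6 were at 0 in all libraries. Enterocyte markers (6 genes) summed to 0.864 to 14.0 CPM in WT and 20.6 to 23.5 CPM in KO. Rbp2 made up 13.7 CPM of the sum in WT3 and 23.0 CPM in KO1, and the other 5 were at 0.283 to 0.412 CPM in WT, 0.524 CPM in KO1 and 19.1 and 17.6 CPM in KO2 and KO3.

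Among other cell types, cardiomyocyte markers (10 genes) summed to 2738 to 7405 CPM in WT and 1375 to 1867 CPM in KO, with 8 of 10 lower in every KO library (20.9% of all genes were). Of these 10, 0 passed the edgeR test and 6 had an unadjusted p of at most 0.05 (27.3% of all genes did). In DESeq2 3 of them passed, where 3919 of 18660 genes did. Alveolar type 2 markers (10 genes), whose cells use the acylation enzymes for surfactant lipid, summed to 22298 to 23216 CPM in WT and 31442 to 33213 CPM in KO, 9 of 10 were higher in every KO library (20.0% of all genes were), and 4 passed the test (2.28% of all genes did). In DESeq2 8 of these markers passed (3919 of 18660 genes did) and in the exact test 0 (209 genes did). Lipofibroblast markers (7 genes) overlapped, at 4147 to 4386 CPM in WT and 3817 to 4415 CPM in KO. Alveolar macrophage markers (5 genes) were at 222 to 272 CPM in WT and 174 to 190 CPM in KO, but without Cidec, also an adipocyte gene, they overlapped at 158 to 202 CPM in WT and 148 to 175 CPM in KO. Mesothelial markers (5 genes) were at 421 to 453 CPM in WT and 425 to 656 CPM in KO. Erythroid markers (7 genes) were at 18954 and 19724 CPM in KO2 and KO3 and at 2389 to 5524 CPM in the other libraries. The part of any of these cell types in the levels of the 9 genes was not tested.

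The genes whose pattern over the 6 libraries was most like that of Pck1 were sought among 12568 genes with a mean of 5 CPM or more, by the root mean square difference of centred log2(CPM + 0.5). Plin1 came first (0.37), then Lep (0.47), Tmem45b (0.52), A530016L24Rik (0.56) and Thrsp (0.63), the last a lipogenic protein of fat and liver. All of these are on the study's own list of differing genes. Of the 9 genes, Aqp7 was at a distance of 0.65, too low in level to be ranked. Gpd1 ranked 34 (1.15), Dgat2 53 (1.27), Agpat2 117 (1.44) and Lpin1 231 (1.56). Gpam (1445), Dgat1 (2857) and Pck2 (10678) ranked far behind. Ordered by distance, the other genes of the 9 follow the order of their log2 fold changes, Aqp7 lowest and Pck2 highest. Pck1 was chosen for its low KO level and the distance includes that difference, so nothing is read from these ranks.

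Further genes of the pathway were taken from lists written from textbook knowledge, 65 genes in the table, of which 63 passed the filter and G6pc and Hnf4a did not. Of the 63, 28 were higher and 35 lower in KO, and 2 (3.17%, beside 2.28% of all genes) passed an adjusted p of 0.05, both lower. At an unadjusted p of 0.05, 26 of the 63 passed, 16 of them lower, where 27.3% of all genes tested did. The median log2 fold change was -0.04. Acsl1, the acyl-CoA synthetase that activates fatty acids in fat and heart, fell in KO, where it was at 101 ± 2.01 CPM (SD, n = 2) against 180 ± 20.8 CPM in WT (SD, n = 3), with a log2 fold change of -0.82 (SE 0.11, edgeR adjusted p = 0.0448). Ppara, the nuclear receptor of fatty acid oxidation, fell as well, to 3.65 ± 0.0897 CPM (SD, n = 2) against 9.15 ± 1.47 CPM (SD, n = 3), with a log2 fold change of -1.32 (SE 0.17, edgeR adjusted p = 0.0446). All 3 KO libraries were below all 3 WT libraries for both genes. With WT3 and KO1 left out, the log2 ratio of the means was -0.87 for Acsl1 and -1.40 for Ppara. Their adjusted p ranged up to 0.189 over the 16 alternatives, and neither passed when WT1, WT2, WT3 or KO1 was left out.

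In glyceroneogenesis and gluconeogenesis, 15 genes were tested, 9 higher and 6 lower in KO, and 0 passed. At an unadjusted p of 0.05, 8 passed, where 27.3% of all genes did. In DESeq2 6 passed, where 3919 of 18660 genes did. In the edgeR fit of 6 separate libraries 17 genes of all the lists passed, where 18.9% of all genes did. The most abundant per kilobase were the glycolytic aldolase Aldoa, with a log2 fold change of 0.33 (SE 0.42) that turned to -0.45 without KO1 (-0.18 without WT3 and KO1), and the malate dehydrogenase Mdh2 at -0.21 (SE 0.15), which was -0.47 without KO1 and -0.49 without WT3 and KO1. Chosen after their values were seen, Pcx, which feeds oxaloacetate to Pck1, was at 121, 171 and 150 CPM in WT and 81.3, 92.7 and 91.1 CPM in KO. Its log2 fold change was -0.76 (SE 0.17, edgeR adjusted p = 0.0700). Pdk4, the kinase that spares pyruvate for this route and a gene on the study's list, was at 60.9, 72.1 and 76.7 CPM in WT and 35.9, 18.9 and 18.3 CPM in KO, with a log2 fold change of -1.36 (SE 0.30, edgeR adjusted p = 0.0704). Got1, the cytosolic aspartate aminotransferase, was at -0.77 (SE 0.21, edgeR adjusted p = 0.100). None of these 3 genes passed the test, and the median log2 fold change of the list was 0.18. Without WT3 and KO1 the log2 ratios of the means were -0.67 for Pcx, -1.84 for Pdk4 and -0.98 for Got1.

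In glycerol 3-phosphate supply, 7 genes were tested, 1 higher and 6 lower, and 0 passed. At an unadjusted p of 0.05, 3 passed, again beside 27.3% of all genes. In DESeq2 2 passed, beside 3919 of 18660 genes. Gpd1l, a relative of Gpd1, was at 78.9 to 87.7 CPM in WT and 77.8 to 83.5 CPM in KO, with a log2 fold change of -0.04 (SE 0.07). Gpd2, the mitochondrial enzyme of the glycerol phosphate shuttle, was at 51.3, 83.8 and 51.0 CPM in WT and 39.3, 37.9 and 38.1 CPM in KO, with a log2 fold change of -0.68 (SE 0.25, edgeR adjusted p = 0.165), or -0.40 without WT2. Gyk, glycerol kinase, chosen after its values were seen, was at -0.33 (SE 0.13). WT2 was high for Gpd2 as it was for Gpd1. Without WT3 and KO1 the log2 ratio was -0.04 for Gpd1l, -0.83 for Gpd2 and -0.32 for Gyk.

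In acylation and triglyceride assembly, 26 genes were tested, 12 higher and 14 lower, and Acsl1 alone passed (3.85%, beside 2.28% of all genes). At an unadjusted p of 0.05, 7 of the 26 passed, beside 27.3% of all genes. The most abundant per kilobase were the lipid phosphate phosphatases Ppap2b (log2 fold change -0.26, SE 0.10) and Ppap2a (0.26, SE 0.12), with opposite signs. Without KO1 their log2 fold changes were -0.41 and 0.10, and without WT3 and KO1 the log2 ratios were -0.38 and 0.10. Mogat1, which acylates monoacylglycerol and was chosen after its values were seen, was at 1.15, 1.83 and 0.967 CPM in WT and 0.222, 0.241 and 0.308 CPM in KO. Its log2 fold change of -2.39 (SE 0.37) just missed the threshold (edgeR adjusted p = 0.0501), and the log2 ratio was -2.44 without WT3 and KO1.

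Among the known regulators of Pck1, 15 were tested, 6 higher and 9 lower, and Ppara alone passed (6.67%, beside 2.28% of all genes). At an unadjusted p of 0.05, 8 of the 15 passed, beside 27.3% of all genes. Nr1d1, the clock repressor that the study followed, and Cebpa, an adipocyte and liver factor, were the most abundant per kilobase. Nr1d1 was at 287, 252 and 296 CPM in WT and 401, 389 and 388 CPM in KO, with a log2 fold change of 0.51 (SE 0.08, edgeR adjusted p = 0.0512) and a log2 ratio of 0.53 without WT3 and KO1. Cebpa was at 0.10 (SE 0.09), with a sign that turned under an offset for gene length and GC content (-0.14) and a log2 ratio of 0.18 without WT3 and KO1. Chosen after their values were seen, Pparg, the master regulator of fat cells, was at 18.0, 29.0 and 15.9 CPM in WT and 10.1, 12.9 and 12.6 CPM in KO, with a log2 fold change of -0.87 (SE 0.30, edgeR adjusted p = 0.149), or -0.57 without WT2. The coactivator Ppargc1a was at -0.68 (SE 0.17, edgeR adjusted p = 0.0897), the insulin receptor Insr at -0.39 (SE 0.08, edgeR adjusted p = 0.0666) and Cebpb at 0.87 (SE 0.19, edgeR adjusted p = 0.0679). Of these, Cebpb was the 1 whose KO libraries all exceeded its WT libraries. Without WT3 and KO1 the log2 ratio was -0.88 for Pparg, -0.72 for Ppargc1a, -0.37 for Insr and 1.18 for Cebpb. Under the offset for gene length and GC content the log2 fold change was -0.13 for Insr and 0.47 for Cebpb.

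**Figure D4:**
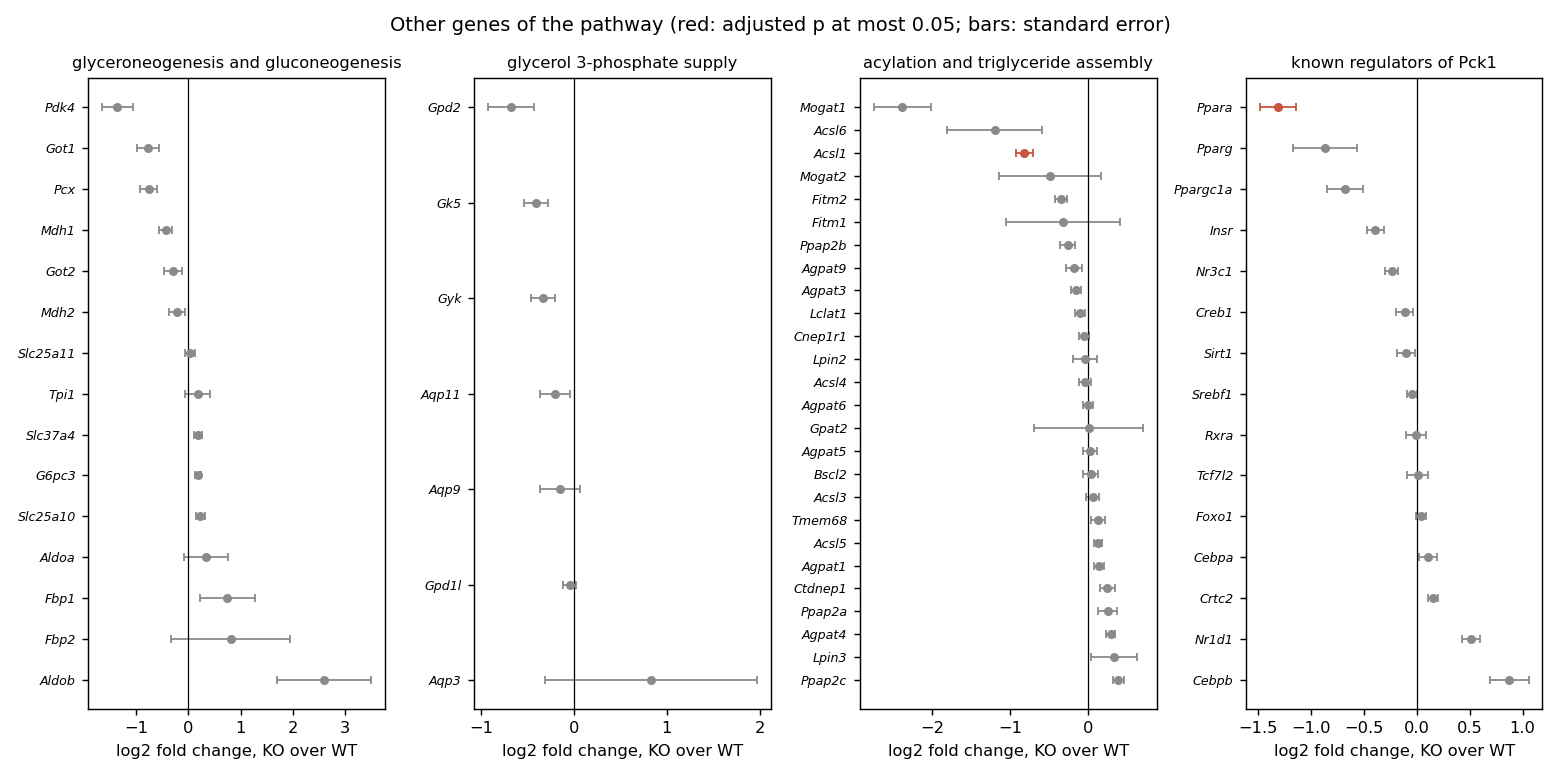
Log2 fold change, KO over WT, with its standard error (edgeR) for the pathway genes tested, in 4 panels by list, with separate horizontal scales. Red marks the genes with an adjusted p of at most 0.05, Acsl1 and Ppara, and most others lie within 1 log2 unit of 0.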

How the data were processed

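Lung RNA of 3 WT and 3 KO mice was sequenced. The deposited table holds raw counts per gene, for which the authors trimmed reads, aligned them to GRCm38 and counted them with HTSeq in GenPipes. The submitters' processing notes list Trimmomatic 0.36, STAR 2.5.3a, Picard 2.9.0 and HTSeq 0.6.0. The annotation release and strand setting are not given in the sources used here. GENCODE M21 gave coordinates and lengths and held 97.3% of the identifiers.

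KO2 and KO3 counts were summed as 1 sample. Counts were filtered (filterByExpr), TMM-scaled and tested with edgeR 4.0.16 (glmQLFit, glmQLFTest) in R 4.3.3, Benjamini-Hochberg adjusted over all genes, and a gene passed at an adjusted p of at most 0.05. The code was tested on simulated counts. CPM per kb divides CPM by the exonic length of the protein-coding transcripts. Alternatives covered scaling, filters, DESeq2 1.42.0, covariates and left-out libraries.

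The 9 genes and all lists were chosen with earlier results of these data known. Pathway genes were named if they passed (at most 12) or were among the 2 most abundant per kilobase of a list, and the 5 genes most like Pck1 were named. Others were chosen after their values were seen.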

Additional observations from a re-analysis of the deposited data

How the results depend on the processing

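The log2 fold changes of the 9 genes kept their sign under all 16 alternatives. Genes passing over the whole table numbered 426 (257 higher, 169 lower). They numbered 3402 with 6 separate libraries, 909 with at least 10 counts in every library, 3919 in DESeq2, 209 in the exact test, 2526 with a term for squamous genes and 0 with an offset for gene length and GC content (edgeR, 3845 at an unadjusted p of 0.05). With library size alone the split was 117 higher and 189 lower. Leaving out 1 library gave 0 to 418, with 0 without WT1, WT2 or WT3 (edgeR, 3346 to 4193 at an unadjusted p of 0.05) and 17 without KO1. Of the 9 genes 3 passed, 7 with separate libraries (18.9% of all genes) or in DESeq2, 4 with the squamous term (Dgat2 in addition), 0 with the offset and 0 to 3 with a library left out (0 without WT1, WT2, WT3 or KO1), beside 2.28% of all genes in the main comparison. Of the pathway genes 2 passed, 17 with separate libraries, 4 with at least 10 counts, 21 in DESeq2, 5 in the exact test, 14 with the squamous term, 0 with the offset and 0 to 3 with a library left out. The causes were not tested.

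Pck1 against the adipocyte sum (-2.34) was -2.94 without the genes the study picked, -0.60 against Plin1, -1.12 against Adipoq and -2.41 to -1.92 with a library left out. Signs turned for Gpd1l with the offset (0.0075), Cebpa with the offset (-0.14) and Aldoa without KO1 (-0.45, and 0.60 without WT3). The log2 fold changes of the other named pathway genes kept their sign, and those of single markers were not recomputed. WT3 and KO1 left out together and the denominators Plin1 and Adipoq were chosen after seeing the data.

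Same-numbered libraries deviated together for number 2 (r = 0.76) but not for numbers 1 and 3 (r = -0.66 and -0.82), so they were taken to share only a number. With the replicate number as a block on 6 separate libraries, 1157 genes, 3 of the 9 genes and 9 pathway genes passed. The fewest counts behind any of the 9 genes were those of Aqp7 in KO, 38 to 53 per library.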
